A study of Caenorhabditis elegans with 6 samples.

Results

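The genes described here encode the p38 and stress-activated MAP kinase pathways of Caenorhabditis elegans, read after RNA interference (RNAi) against rab-11.1, which encodes a small GTPase of recycling endosomes. They were chosen by name, as the adaptor, kinases, phosphatase and transcription factor of these pathways without their target genes. Earlier results of these data were known when this choice was made. All 10 were found among the 46739 features of the deposited table. In this pathway the adaptor TIR-1 activates the MAP kinase kinase kinase NSY-1, NSY-1 activates the MAP kinase kinase SEK-1, and SEK-1 activates the p38 kinases PMK-1 and PMK-2, which act on the transcription factor ATF-7. The cascade is known for intestinal and epidermal defence and for signalling in neurons. A parallel module, in which MEK-1 activates the JNK-like kinase KGB-1, serves the response to heavy metals, protein folding stress and axon injury, and the phosphatase VHP-1 switches off both modules.

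The worms were L4 larvae of the wild-type strain N2, kept at 20 °C on the Escherichia coli strain HT115 on plates with IPTG and carbenicillin. One group of 3 libraries came from worms fed bacteria with the rab-11.1 RNAi construct, and the other group of 3 libraries from worms fed the empty vector (EV RNAi), in both cases throughout development. RNA of whole animals was enriched for polyadenylated transcripts, and the labels describe the 3 libraries of each group as biological replicates. Levels are in RPKM, which is the number of reads divided by the length of the gene model and by the depth of the library.

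Depth was 22946375 to 25107994 reads after rab-11.1 RNAi and 27190567 to 30183162 reads after EV RNAi, worked out from the size of a single read among low RPKM values. The target gene rab-11.1 was measured at 151.3 RPKM, 137.8 RPKM and 632.6 RPKM in replicates 1, 2 and 3 of rab-11.1 RNAi and at 411.1 RPKM, 398.2 RPKM and 409.5 RPKM in those of EV RNAi. The library labelled replicate 3 of rab-11.1 RNAi therefore went against its label in the level of rab-11.1, at 155.7% of the EV RNAi mean. It is part of each rab-11.1 RNAi mean below. The log2 fold change of rab-11.1 was -0.78 with all libraries (limma adjusted p = 0.415). It was -1.49 without that library, which was singled out by its rab-11.1 value, so the smaller fit is no test of the knockdown. Bacterial double-stranded RNA against rab-11.1 could add reads to the target, and the table does not separate them. Replicate 2 of each group stood apart from its group on the principal components. On components 1 and 2 the library labelled replicate 3 of rab-11.1 RNAi (-11.42 and 15.16) lay near replicate 1 of that group (-17.26 and 18.49). Summed over 10 marker genes each, neuronal transcripts were at 468.3 to 664.0 RPKM after rab-11.1 RNAi and 349.0 to 412.8 RPKM after EV RNAi, without overlap. Body wall muscle transcripts were at 4613 to 5088 RPKM after rab-11.1 RNAi and 5398 to 5618 RPKM after EV RNAi, also without overlap. The germline sum was 463.2, 289.0 and 499.8 RPKM in replicates 1, 2 and 3 of rab-11.1 RNAi and 653.5, 371.7 and 600.2 RPKM in those of EV RNAi. Its ranges overlapped, but it was lower after rab-11.1 RNAi in all 3 comparisons of libraries with the same number. The numbers are not shown to mark pairs. The intestinal sum was 4406 to 5614 RPKM after rab-11.1 RNAi and 5435 to 6116 RPKM after EV RNAi. It was also lower in all 3 such comparisons with overlapping ranges, and the epidermal sum overlapped too. A sum rests mostly on its most abundant markers. The median log2 fold change of the 10 intestinal markers was -0.20. Of these, elt-2 was higher without overlap but did not pass (fold 1.245, limma adjusted p = 0.0936). No marker of the 5 lists was at 0 in all libraries. In the test described below, without the replicate number as a block, 1 neuronal and 1 epidermal marker of the 50 passed, both higher. With the block, 7 of the 10 germline markers were lower and 0 higher, against 4.47% of all features lower in that fit. In the same fit 4 neuronal, 3 epidermal and 1 intestinal marker were higher, and 1 epidermal and 1 body wall muscle marker were lower.

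Of the 10 pathway genes, 6 rose after rab-11.1 RNAi, 0 fell and 4 did not pass the test. The genes that rose were tir-1, pmk-1, pmk-3, vhp-1, mek-1 and kgb-1, and those that did not pass were nsy-1, sek-1, pmk-2 and atf-7. The test was limma on log2(RPKM + 1) over the 13833 features that reached 1 RPKM in 3 libraries or more, with Benjamini-Hochberg adjustment and a threshold of 0.05, and adjusted p values below come from it unless another test or setting is named. Of all features tested, 7.93% were called higher and 1.07% lower. The 10 genes stood at 4.163 RPKM or more in every library, so none entered through a single group. In 9 of them every rab-11.1 RNAi library lay above every EV RNAi library, which held for 27.4% of the features tested. The median log2 fold change of the 10 genes was 0.55, against 0.09 over all features tested. The 2 groups are mixtures of whole animals, in which more cells of a type and more RNA per cell cannot be told apart. The sum of neuronal markers was higher and that of body wall muscle markers lower, both without overlap. The germline and intestinal sums overlapped between the groups. The part of these cell types in the increases was not tested.

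**Figure D1:**
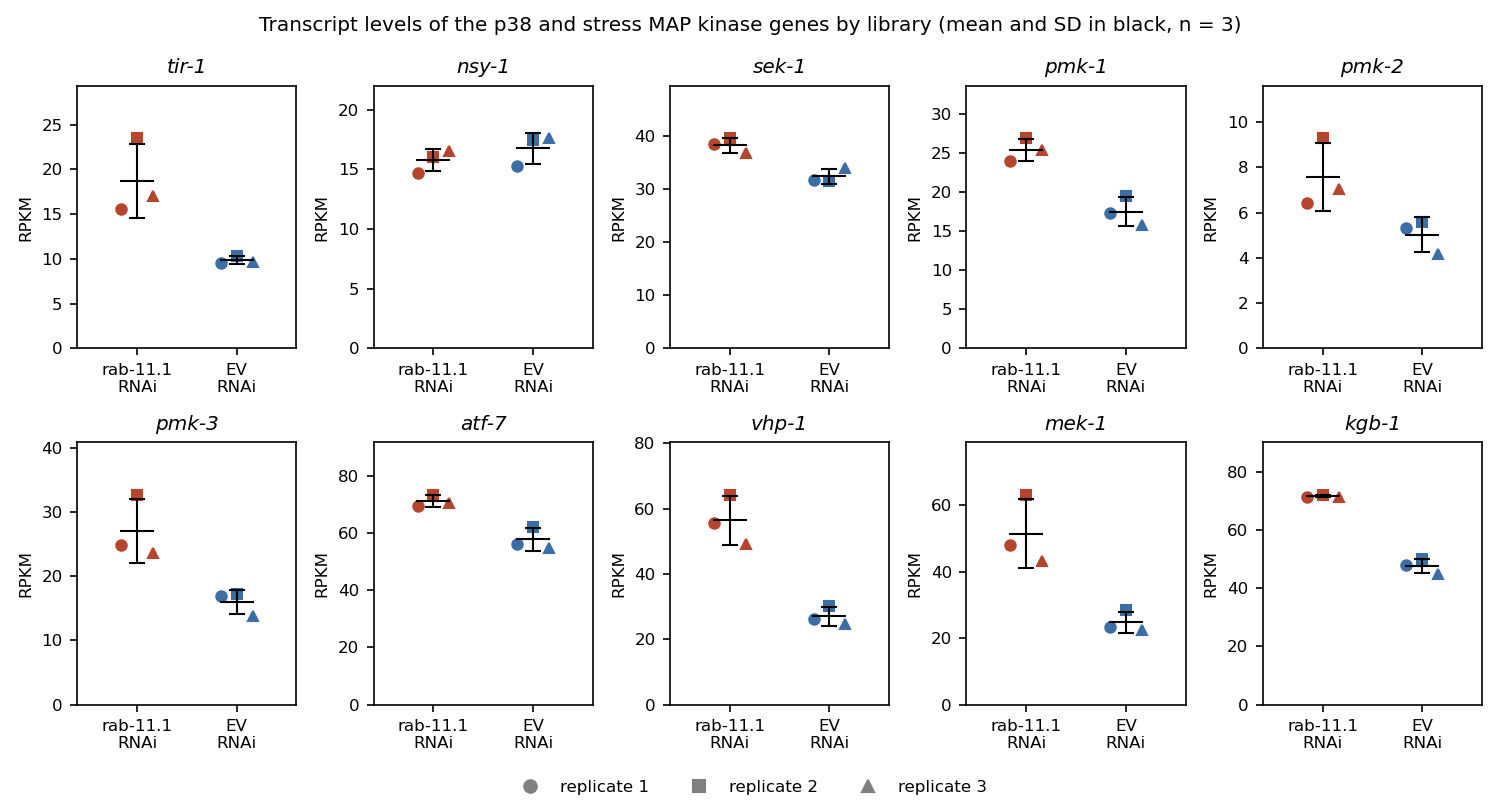
Transcript level in RPKM (vertical axes, each from 0) of each of the 10 genes in the 3 rab-11.1 RNAi and 3 EV RNAi libraries, with marker shapes for the replicate number and the mean and SD in black. The groups are apart in every panel except that of nsy-1, and the spread of kgb-1 within the rab-11.1 RNAi group is small, at 71.4 to 72.2 RPKM.

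Without the library labelled replicate 3 of rab-11.1 RNAi, 3 of the 10 genes rose (vhp-1, mek-1 and kgb-1), against 4.17% of the 13580 features tested in that fit. That fit has fewer libraries, and the log2 fold changes of the 6 genes were between 0.52 and 1.13 in it. With the replicate number as a block in the fit, 8 of the 10 rose, against 16.5% of all features tested, the additions being pmk-2 and atf-7. With the block but without replicate 3 of either group, 4 of the 10 rose (tir-1, pmk-3, vhp-1 and mek-1), against 5.65% of features in that fit, and neither addition was among them. In the per-library values below, the last value of the rab-11.1 RNAi group is that of the library labelled replicate 3.

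The input of the cascade rose while the next kinase did not pass the test. The gene tir-1 (WBGene00006575, WBcel235 chromosome III, 3869590 to 3901642, minus strand) encodes the TIR domain adaptor, orthologous to mammalian SARM1. It stood at 15.6, 23.45 and 17.05 RPKM in the rab-11.1 RNAi libraries and at 9.50, 10.4 and 9.65 RPKM in the EV RNAi libraries. All rab-11.1 RNAi libraries were above all EV RNAi libraries, with replicate 2 the highest of each group. The mean was 18.7 ± 4.18 RPKM after rab-11.1 RNAi and 9.83 ± 0.461 RPKM after EV RNAi (SD, n = 3 each), a fold of 1.90 (log2 fold change 0.84, SE 0.15, adjusted p = 0.0232). The call ended without the library labelled replicate 3 of rab-11.1 RNAi (adjusted p = 0.0550), without EV RNAi replicate 1 (adjusted p = 0.0894) or 3 (adjusted p = 0.105), and with quantile normalization (adjusted p = 0.0513).

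The MAP kinase kinase kinase gene nsy-1 (WBGene00003822, chromosome II, 5022757 to 5029999, plus strand), orthologous to mammalian ASK1, was the only one of the 10 whose groups overlapped. Its levels were 14.7, 16.1 and 16.5 RPKM in the rab-11.1 RNAi libraries and 15.3, 17.4 and 17.6 RPKM in the EV RNAi libraries. Between the groups it differed by -0.08 on the log2 scale (SE 0.09, adjusted p = 0.627), with a 95% interval of -0.31 to 0.14. Its depth was 1703 to 2089 reads after rab-11.1 RNAi and 2323 to 2637 reads after EV RNAi. The ratio of nsy-1 to tir-1, chosen after the values were seen, was 0.945, 0.685 and 0.968 in the rab-11.1 RNAi libraries and 1.61, 1.68 and 1.82 in the EV RNAi libraries. Every rab-11.1 RNAi library was below every EV RNAi library. Whether a ratio is above or below 1 depends on the gene lengths used, but the difference between the groups does not. The log2 ratio differed by -0.99 between the groups (exact two-sided permutation test, p = 0.1, adjusted p = 0.167 over the 5 ratios tested), where 0.1 is the smallest p that 3 libraries against 3 can give.

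The MAP kinase kinase gene sek-1 (WBGene00004758, chromosome X, 7816734 to 7821036, plus strand) stood at 38.5, 39.5 and 36.7 RPKM in the rab-11.1 RNAi libraries and at 31.7, 31.5 and 33.9 RPKM in the EV RNAi libraries. The groups did not overlap, but the difference did not pass (fold 1.18, log2 fold change 0.23, SE 0.07, adjusted p = 0.0943), and the 95% interval ran from 0.06 to 0.40. It did not pass with the replicate block either (adjusted p = 0.0741). The exons of sek-1 overlap those of R03G5.6 on the opposite strand by 70 bases, and those of nsy-1 overlap wdr-83 by 56 bases. The sources used here do not say whether counting used the strand.

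The 3 p38 genes lie side by side on the plus strand of chromosome IV in the order pmk-3, pmk-2, pmk-1, with gaps of 345 and 145 bases, and are known to be transcribed as an operon. PMK-1 is the p38 kinase of intestinal immunity, and PMK-2 overlaps with it in function and acts mainly in neurons. PMK-3 acts with the kinase DLK-1 in axon regeneration and with DLK-1 and SEK-3 in mitochondrial stress. The gene pmk-1 (WBGene00004055, 8148794 to 8151266) rose. It stood at 23.97, 26.8 and 25.3 RPKM in the rab-11.1 RNAi libraries and at 17.3, 19.4 and 15.7 RPKM in the EV RNAi libraries. The means were 25.4 ± 1.43 RPKM after rab-11.1 RNAi and 17.5 ± 1.86 RPKM after EV RNAi (SD, n = 3 each), a fold of 1.45 (log2 fold change 0.52, SE 0.10, adjusted p = 0.0264).

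The gene pmk-3 (WBGene00004057, 8139219 to 8143154) rose by a fold of 1.69. Its levels were 24.9, 32.8 and 23.7 RPKM in the rab-11.1 RNAi libraries and 16.9, 17.3 and 13.9 RPKM in the EV RNAi libraries, again with replicate 2 the highest of each group (log2 fold change 0.71, SE 0.15, adjusted p = 0.0319). The gene between them, pmk-2 (WBGene00004056, 8143500 to 8148648), had the lowest level of the 10 genes. It was at 6.44, 9.28 and 7.05 RPKM in the rab-11.1 RNAi libraries and at 5.32, 5.59 and 4.16 RPKM in the EV RNAi libraries, on 174 to 333 reads per library. The groups did not overlap, and the difference did not pass (fold 1.51, log2 fold change 0.50, SE 0.17, adjusted p = 0.124), but it did with the replicate block (adjusted p = 0.0434). That call was lost when replicate 3 of each group was dropped from the blocked fit (adjusted p = 0.179).

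The ratios among the 3 p38 genes did not separate the groups. The ratio of pmk-3 to pmk-1 was 1.04, 1.22 and 0.935 in the rab-11.1 RNAi libraries and 0.978, 0.891 and 0.880 in the EV RNAi libraries (exact two-sided permutation test, p = 0.2, adjusted p = 0.25). The ratio of pmk-2 to pmk-1 was 0.269, 0.346 and 0.278 in the rab-11.1 RNAi libraries and 0.309, 0.288 and 0.264 in the EV RNAi libraries (exact two-sided permutation test, p = 0.8). The groups overlapped in both ratios, and with 3 libraries a group these tests do not show that the ratios were alike.

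Among the 6 genes that rose, pmk-1 and pmk-3 lost their call in the most fits with a library left out, 5 of 6. Both calls ended without replicate 1, 2 or 3 of rab-11.1 RNAi, without EV RNAi replicate 1 or 3, with median-of-ratios scaling and with quantile normalization, with adjusted p values of 0.0698 to 0.110 for pmk-1 and 0.0524 to 0.125 for pmk-3. The library labelled replicate 3 of rab-11.1 RNAi was among these, at adjusted p = 0.0709 for pmk-1 and adjusted p = 0.0533 for pmk-3 without it.

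A known transcriptional readout of PMK-3 is the tubulin gene tbb-6, which stood at 180.6, 389.6 and 157.0 RPKM in the rab-11.1 RNAi libraries and at 4.39, 4.97 and 4.50 RPKM in the EV RNAi libraries (log2 fold change 5.32, SE 0.32, adjusted p = 0.00115). The order of the rab-11.1 RNAi libraries was the same as for pmk-3 and for mek-1, vhp-1 and the summed neuronal markers, with replicate 2 the highest, replicate 1 next and the library labelled replicate 3 the lowest.

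**Figure D2:**
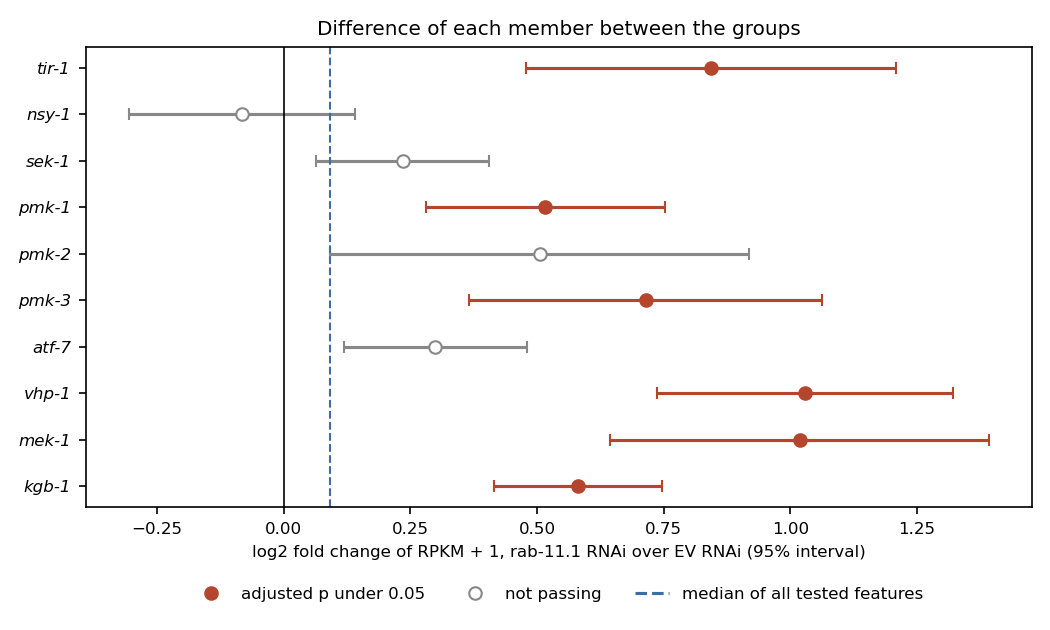
Log2 fold change of RPKM + 1, rab-11.1 RNAi over EV RNAi (horizontal axis), for each of the 10 genes in pathway order, with the 95% interval of the limma fit and the median of all tested features (0.09) as a dashed line. Filled points passed an adjusted p of 0.05, and vhp-1 (1.03) and mek-1 (1.02) are farthest to the right.

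The transcription factor at the end of the p38 cascade did not pass. The gene atf-7 (WBGene00000223, chromosome III, 4491627 to 4499045, minus strand) encodes a bZIP factor that PMK-1 phosphorylates, and its exons overlap those of C07G2.5 on the same strand by 72 bases. It stood at 69.6, 73.5 and 70.7 RPKM in the rab-11.1 RNAi libraries and at 56.2, 62.3 and 54.9 RPKM in the EV RNAi libraries. The groups did not overlap (fold 1.23, log2 fold change 0.30, SE 0.08, adjusted p = 0.0586), and the 95% interval was 0.12 to 0.48. The difference passed with the replicate block (adjusted p = 0.0316), with a filter at 5 RPKM (adjusted p = 0.0490) and without EV RNAi replicate 2 (adjusted p = 0.0466). In the blocked fit without replicate 3 of each group it did not (adjusted p = 0.174).

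The largest fold changes of the set were those of the phosphatase and of the kinase above KGB-1. The gene vhp-1 (WBGene00006923, chromosome II, 5323276 to 5340829, plus strand) encodes the MAP kinase phosphatase that acts on PMK-1 and KGB-1. It stood at 55.7, 64.2 and 49.1 RPKM in the rab-11.1 RNAi libraries and at 26.2, 30.3 and 24.7 RPKM in the EV RNAi libraries. The lowest rab-11.1 RNAi library was well above the highest EV RNAi library. The means were 56.4 ± 7.58 RPKM after rab-11.1 RNAi and 27.03 ± 2.90 RPKM after EV RNAi (SD, n = 3 each), a fold of 2.08 (log2 fold change 1.03, SE 0.12, adjusted p = 0.00564). Leaving out any 1 library did not end its call (adjusted p up to 0.0385), and it also held in the other settings tried.

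The MAP kinase kinase gene mek-1 (WBGene00003185, chromosome X, 7479248 to 7481005, plus strand), related to mammalian MKK7, rose by the same fold of 2.08. It stood at 48.1, 63.1 and 43.1 RPKM in the rab-11.1 RNAi libraries and at 23.3, 28.3 and 22.5 RPKM in the EV RNAi libraries (log2 fold change 1.02, SE 0.16, adjusted p = 0.0136). Its call ended without rab-11.1 RNAi replicate 1 (adjusted p = 0.0520) and without EV RNAi replicate 1 (adjusted p = 0.0635) or 3 (adjusted p = 0.0750).

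The kinase gene kgb-1 (WBGene00002187, chromosome IV, 405621 to 410035, minus strand) rose by a fold of 1.505. Its levels were 71.4, 72.2 and 71.4 RPKM in the rab-11.1 RNAi libraries and 47.8, 50.0 and 45.0 RPKM in the EV RNAi libraries. The means were 71.7 ± 0.429 RPKM after rab-11.1 RNAi and 47.6 ± 2.50 RPKM after EV RNAi (SD, n = 3 each), and the log2 fold change was 0.58 with SE 0.07 (adjusted p = 0.00564). Its call held with any 1 library left out (adjusted p up to 0.0405), but not when the block was used without replicate 3 of either group (adjusted p = 0.0516). The paralogue kgb-2, at a much lower level, rose by a fold of 5.92, from the list described below, and the sources used here do not say how reads shared by paralogues were counted.

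Ratios of genes within a library do not depend on how that library was scaled. The ratio of pmk-1 to vhp-1, the p38 kinase to its phosphatase, was 0.430, 0.418 and 0.516 in the rab-11.1 RNAi libraries and 0.660, 0.642 and 0.639 in the EV RNAi libraries. Every rab-11.1 RNAi library was below every EV RNAi library, with a difference of -0.52 in the log2 ratio (exact two-sided permutation test, p = 0.1, adjusted p = 0.167 over 5 ratios). The ratio of mek-1 to kgb-1, chosen after the values were seen, was 0.674, 0.875 and 0.603 in the rab-11.1 RNAi libraries and 0.487, 0.567 and 0.499 in the EV RNAi libraries, also without overlap and with a difference of 0.46 (exact two-sided permutation test, p = 0.1, adjusted p = 0.167). Neither can pass the threshold in a design of this size.

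**Figure D3:**
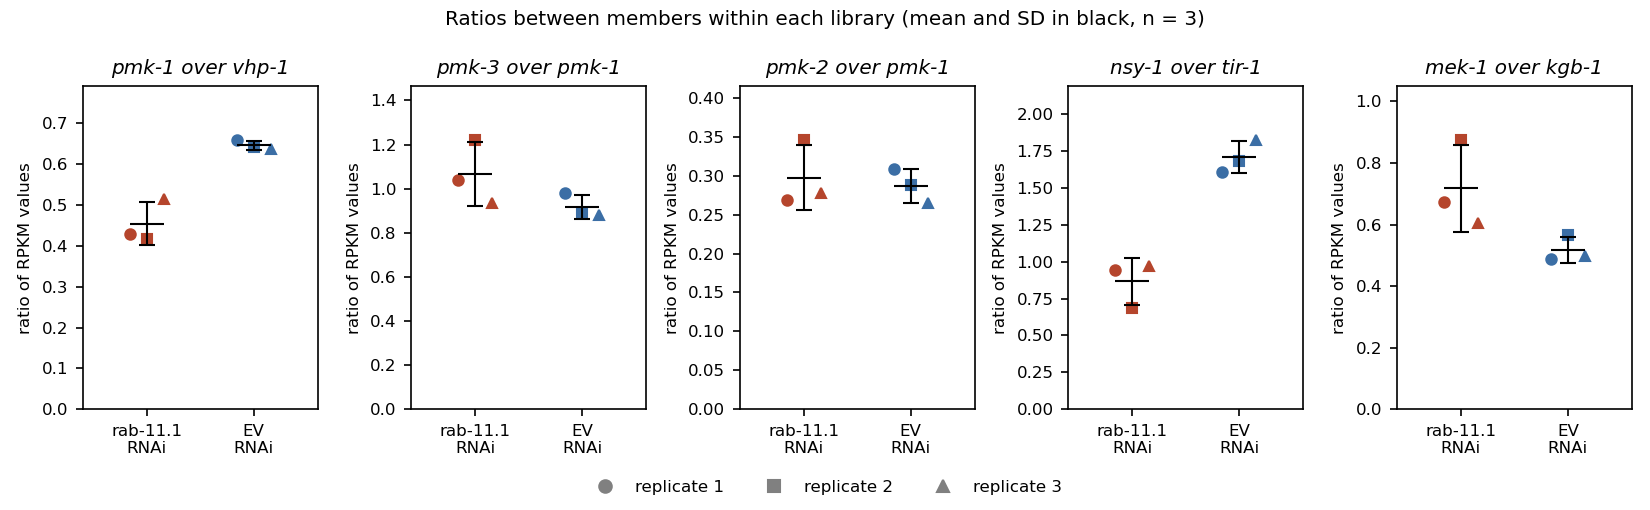
Ratio of the RPKM values of 2 genes within each library (vertical axes, each from 0) for 5 pairs, with marker shapes for the replicate number and the mean and SD in black. The groups are apart for pmk-1 over vhp-1, nsy-1 over tir-1 and mek-1 over kgb-1, and overlap for pmk-3 over pmk-1 and pmk-2 over pmk-1.

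Ordered by level, kgb-1 (71.7 RPKM) and atf-7 (71.3 RPKM) were highest after rab-11.1 RNAi and did not differ beyond their spread. They were followed by vhp-1 and mek-1, whose ranges overlapped, then by sek-1, by pmk-3 and pmk-1, whose ranges overlapped, by tir-1 and nsy-1, whose ranges overlapped, and last by pmk-2. After EV RNAi atf-7 (57.8 RPKM) was highest, followed by kgb-1 and then sek-1, each apart from the next, then by vhp-1 and mek-1 with overlapping ranges. The genes pmk-1, nsy-1 and pmk-3 came next, each overlapping its neighbour, and tir-1 and pmk-2 were apart at the end. The 2 genes with the largest fold changes, vhp-1 and mek-1, were thus below sek-1 in every EV RNAi library and above it in every rab-11.1 RNAi library. These levels rest on the gene lengths of the authors' table, which for tir-1 was 4423 bases as solved from the values, against 6061 bases of exons in the annotation used here. For sek-1 the solved length was 1771 bases against 2054 in the annotation, for vhp-1 3219 against 3102 and for mek-1 1599 against 1604. The place of tir-1 beside nsy-1 therefore depends on which length is used, as does that of vhp-1 and mek-1 below sek-1 after EV RNAi.

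Replicate 2 was the highest library of its group for 9 of the 10 genes after rab-11.1 RNAi and for 8 of the 10 after EV RNAi, and EV RNAi replicate 3 was the lowest of its group for 7. As a percentage of the EV RNAi mean, vhp-1 was at 206.0%, 237.6% and 181.7% and mek-1 at 194.8%, 255.6% and 174.5% in the rab-11.1 RNAi libraries. For pmk-1 the library labelled replicate 3 lay between the other two, at 144.9%, against 137.1% in replicate 1 and 153.5% in replicate 2. In that library, in which rab-11.1 was high, each of the 6 genes that rose was above every EV RNAi library.

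**Figure D4:**
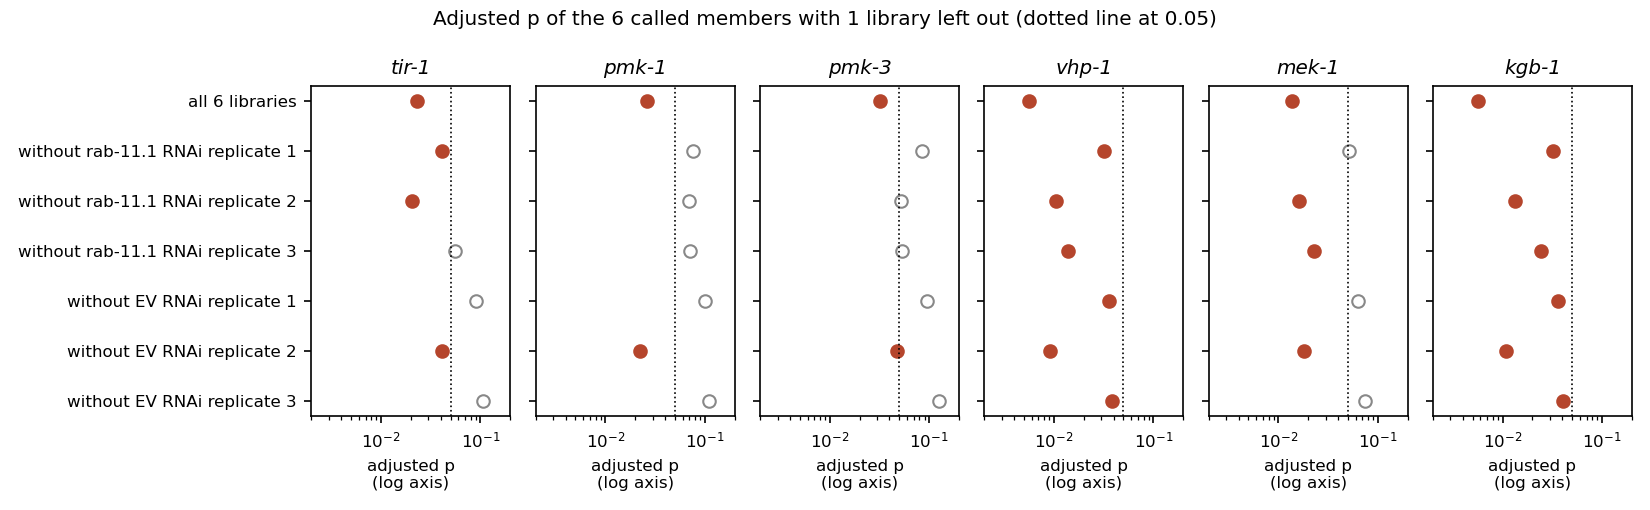
Adjusted p (horizontal log axis) of the 6 genes that rose, with all 6 libraries and with each library left out in turn, where filled points are under 0.05 (dotted line). The genes vhp-1 and kgb-1 stay to the left of the line throughout, whereas pmk-1 and pmk-3 do so in 1 of the 6 fits with a library left out.

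The genes whose profiles over the 6 libraries were nearest to the members with the smallest adjusted p, vhp-1 and kgb-1, were found by the root-mean-square difference of centred log2(RPKM + 1) values. Nearest to vhp-1 were tbc-14 (difference 0.046), which stood at 44.3 ± 7.80 RPKM after rab-11.1 RNAi and 21.3 ± 1.48 RPKM after EV RNAi (SD, n = 3 each), F40B5.2 (0.048) and cgt-1 (0.050). Nearest to kgb-1 were C05G5.2 (0.027), which stood at 8.31 ± 0.0846 RPKM after rab-11.1 RNAi and 5.30 ± 0.470 RPKM after EV RNAi (SD, n = 3 each), R08C7.12 (0.051) and T11B7.1 (0.053). T11B7.1 averaged 1.12 RPKM after rab-11.1 RNAi and 0.401 RPKM after EV RNAi, on 17 to 43 reads per library. It passed the filter only through the rab-11.1 RNAi group. Its fold was 2.80, and at this level its nearness to kgb-1 rests on the 1 RPKM added before the log.

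Around the 10 genes, 5 lists of pathway genes were read in the same fit, of which trf-1, jkk-1, sek-5 and irg-6 were below the filter and not tested. Among genes that feed the TIR-1 to PMK-1 cascade, 1 of 15 tested rose, 0 fell and 14 did not pass, a share close to that of all features (median log2 fold change 0.13, against 0.09 over all features). The gene that rose was nipi-3, which encodes a Tribbles pseudokinase acting above SEK-1 in the epidermis. It was at 84.0, 117.1 and 77.7 RPKM in the rab-11.1 RNAi libraries and at 31.2, 41.8 and 32.1 RPKM in the EV RNAi libraries (fold 2.65, adjusted p = 0.00776), and it passed in all 6 fits that left out 1 library. The G protein gene egl-30 averaged 131.0 RPKM after rab-11.1 RNAi and 132.9 RPKM after EV RNAi, and the receptor gene fshr-1 averaged 19.5 RPKM after rab-11.1 RNAi and 17.6 RPKM after EV RNAi. Both were picked after their values were seen, and neither passed.

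Among genes of the DLK-1 and JNK cascades 5 of 18 tested rose, 0 fell and 13 did not pass (median 0.38), against 7.93% of all features called higher. With the replicate block 9 rose, against 16.5% of all features. The gene kgb-2 was at 9.78, 11.3 and 7.49 RPKM in the rab-11.1 RNAi libraries and at 1.497, 1.73 and 1.602 RPKM in the EV RNAi libraries (log2 fold change 2.00, SE 0.17, adjusted p = 0.00235). The MAP kinase kinase gene sek-3, whose product activates PMK-3, was at 37.6, 40.6 and 33.2 RPKM in the rab-11.1 RNAi libraries and at 20.5, 23.9 and 18.6 RPKM in the EV RNAi libraries (fold 1.77, adjusted p = 0.0118). The receptor tyrosine kinase gene svh-2, which acts above MLK-1 and KGB-1 in axon regeneration, averaged 42.1 ± 3.54 RPKM after rab-11.1 RNAi and 28.1 ± 1.05 RPKM after EV RNAi (SD, n = 3 each, log2 fold change 0.57, adjusted p = 0.0118). The calls of sek-3 and svh-2 held in 3 of the 6 fits that left out 1 library, and that of kgb-2 in all 6. The gene mkk-4 of this list, named after its values were seen, did not pass (fold 1.48, adjusted p = 0.169), and its groups overlapped. The kinase gene dlk-1, chosen here after its values were seen, did not pass (fold 1.75, adjusted p = 0.0569), and neither did jnk-1, a JNK gene of neurons, which averaged 3.32 RPKM after rab-11.1 RNAi and 2.83 RPKM after EV RNAi (adjusted p = 0.616). The genes mlk-1, whose product activates MEK-1 (fold 1.57, adjusted p = 0.0120), and mtk-1, a MAP kinase kinase kinase gene (fold 1.37, adjusted p = 0.0385), were the other two that rose. The neuronal and body wall muscle marker sums differed between the groups as well, and their part in this list was not tested.

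In the ERK and LIT-1 cascades, which serve cell fate and Wnt signalling, 1 of 15 tested genes rose, 0 fell and 14 did not pass (median 0.11). This share is close to the 7.93% of all features called higher. The gene that rose was soc-2, which encodes a leucine-rich repeat scaffold of the Ras pathway, at 41.5 ± 4.45 RPKM after rab-11.1 RNAi and 26.99 ± 2.50 RPKM after EV RNAi (SD, n = 3 each, fold 1.54, adjusted p = 0.0208), in 3 of the 6 fits that left out 1 library but not with median-of-ratios scaling or quantile normalization. The ERK gene mpk-1 averaged 33.1 RPKM after rab-11.1 RNAi and 32.4 RPKM after EV RNAi (log2 fold change 0.03, adjusted p = 0.868), and mek-2, which encodes its kinase, averaged 33.4 RPKM after rab-11.1 RNAi and 33.1 RPKM after EV RNAi (log2 fold change 0.01, adjusted p = 0.935).

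A further list was drawn up as transcription factors and kinases that act after MAP kinases, a place in the pathway that was not tested here. Of its genes 6 of 16 tested rose, 0 fell and 10 did not pass (median 0.40), against 7.93% of all features called higher. Part of its bZIP genes were known to be higher in these libraries when the list was drawn up. Its share is therefore partly fixed in advance. With the replicate block 11 rose and 1 fell, against 16.5% of all features higher and 4.47% lower. The bZIP gene zip-10 was at 53.8, 76.3 and 59.0 RPKM in the rab-11.1 RNAi libraries and at 11.13, 18.5 and 9.11 RPKM in the EV RNAi libraries (fold 4.88, adjusted p = 0.00468). The C/EBP gene cebp-1, whose product acts after DLK-1 and PMK-3 in axon regeneration, averaged 64.6 ± 10.6 RPKM after rab-11.1 RNAi and 24.9 ± 6.64 RPKM after EV RNAi (SD, n = 3 each, fold 2.60, adjusted p = 0.0107). The AP-1 factor gene jun-1 averaged 53.0 ± 13.3 RPKM after rab-11.1 RNAi and 23.7 ± 2.62 RPKM after EV RNAi (SD, n = 3 each, fold 2.24, adjusted p = 0.0142). The bZIP gene zip-2, the GATA factor gene elt-3 and the STAT-like gene sta-2 also rose, with zip-2 averaging 265.3 RPKM after rab-11.1 RNAi and 174.4 RPKM after EV RNAi, elt-3 averaging 25.8 RPKM after rab-11.1 RNAi and 16.6 RPKM after EV RNAi, and sta-2 averaging 11.6 RPKM after rab-11.1 RNAi and 5.08 RPKM after EV RNAi. The gene skn-1, which encodes a factor of the oxidative stress response, averaged 46.97 RPKM after rab-11.1 RNAi and 40.2 RPKM after EV RNAi and did not pass (adjusted p = 0.0819). The call of zip-10 held in all 6 fits that left out 1 library, that of cebp-1 in 5 and that of jun-1 in 4.

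Among genes listed as PMK-1 dependent effectors, 10 of 17 tested rose, clec-86 fell and 6 did not pass (median 1.26). Whether each depends on PMK-1 was not tested here. The gene clec-60, which did not pass, entered the test and the median only through the rab-11.1 RNAi group. It was at 0.484, 0.487 and 0.962 RPKM in the EV RNAi libraries. Over all features 7.93% were called higher and 1.07% lower. The gene dod-22 averaged 40.03 RPKM after rab-11.1 RNAi and 9.52 RPKM after EV RNAi (adjusted p = 0.00210). The lectin gene clec-67 averaged 52.3 RPKM after rab-11.1 RNAi and 20.2 RPKM after EV RNAi (adjusted p = 0.00490), and the lysozyme gene lys-2 averaged 509.5 RPKM after rab-11.1 RNAi and 210.0 RPKM after EV RNAi (adjusted p = 0.00553). These 3 calls held in all 6 fits that left out 1 library. The gene clec-86 averaged 3.67 RPKM after rab-11.1 RNAi and 14.2 RPKM after EV RNAi, and the lysozyme gene lys-8 averaged 244.1 RPKM after rab-11.1 RNAi and 244.3 RPKM after EV RNAi and did not pass (adjusted p = 0.955). Of the genes of the 5 lists together 23 rose, and 15 did so without the library labelled replicate 3 of rab-11.1 RNAi. The share of all features called higher was 7.93% with all libraries and 4.17% without that one. Part of these effector genes and of the bZIP genes were known to be higher in these libraries when the lists were drawn up.

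**Figure D5:**
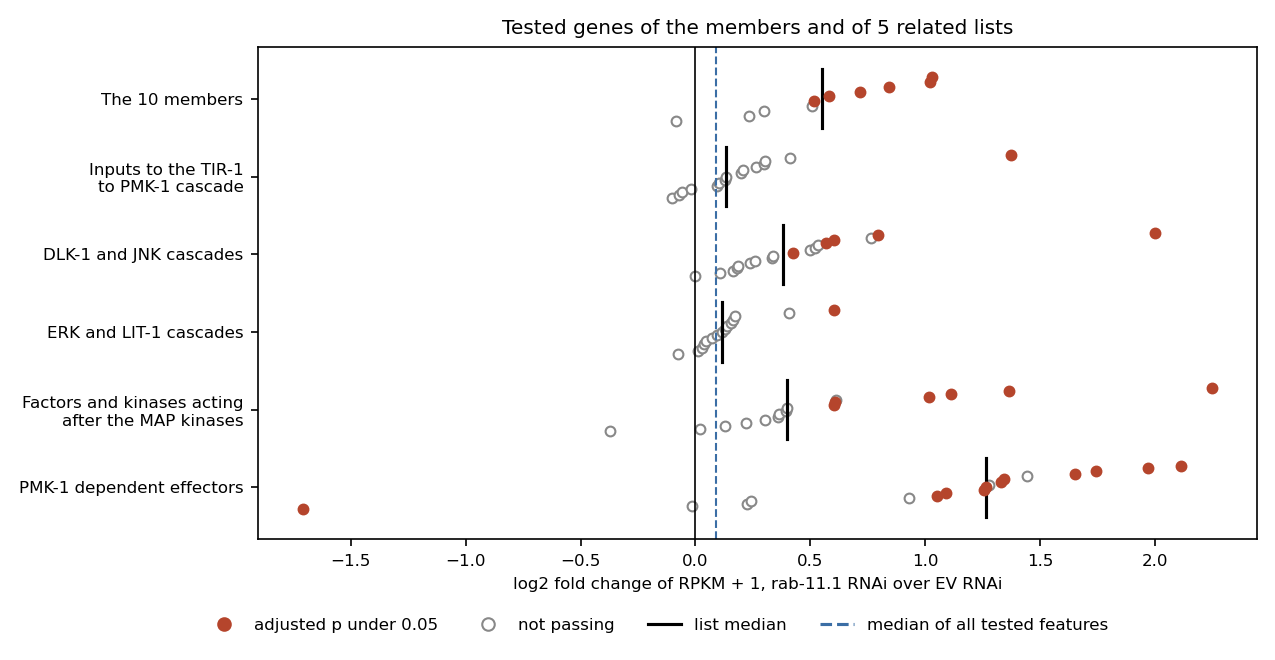
Log2 fold change of RPKM + 1, rab-11.1 RNAi over EV RNAi (horizontal axis), of every tested gene of the 10 members and of 5 related lists, with the median of each list as a black bar and the median of all tested features as a dashed line. Filled points passed an adjusted p of 0.05; the input list and the ERK and LIT-1 list lie near the dashed line with 1 filled point each.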

How the data were processed

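RNA-seq of 6 libraries was analysed, 3 per group. The authors deposited RPKM values and their group means for 46739 features, per the file headers. WBcel235 is named as the build, per the submitters' processing notes. Aligner, counter, annotation and any use of strand: not given in the sources used here. Of the features, 41597 matched Ensembl release 115 by gene symbol and another 2952 by their sequence name.

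Features that reached 1 RPKM in 3 libraries or more entered a limma 3.58.1 fit (R 4.3.3) of log2(RPKM + 1) on group, with trend and robust eBayes, two-sided p values and Benjamini-Hochberg adjustment over all features. This scale understates changes of low genes. Fold values are ratios of mean RPKM. Ratios were tested with exact permutation in scipy 1.17.1. The code was checked on simulated data. There the fit recovered 20.4% of the 98 features changed by 0.6 on the log2 scale and 67.6% of the 102 changed by 1.0. It also called 4 unchanged features. The simulation shuffled the spreads among features and changed only those 98 and 102 features. Its recovery rates are therefore not those of the real comparison. With 3 libraries a group, a gene that did not pass may still have changed.

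Depth and reads were recovered from the steps between the RPKM values, within 0.001 reads, with the gene length solved where it differed from the annotation (9 of the 10 members). The members had 174 to 4842 reads per library.

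Replicate numbers 1 to 3 recur in both groups' labels. Across tested features, same-numbered libraries deviated from their group means together (r of 0.40, 0.62 and 0.35), each above the 0.1 set as the limit for pairing by number. The r of EV RNAi replicate 1 was higher, at 0.46, with rab-11.1 RNAi replicate 3. That of EV RNAi replicate 3 with rab-11.1 RNAi replicate 1, at 0.18, was above the limit too. Passing the limit therefore does not show that the numbers mark pairs. The fit above and ratio tests used no block, and the blocked fit was an alternative.

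The members and lists were chosen with earlier results of these data known. Named were the members, rab-11.1, tbb-6, up to 3 called genes per list with the smallest adjusted p and the 3 nearest profiles of the member with the smallest adjusted p (a tie of vhp-1 and kgb-1). Other list genes were named after their values were seen. Alternatives were other pseudocounts, filters and scalings, no trend, the replicate block, limma-voom on recovered reads and each library left out.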

Additional observations from a re-analysis of the deposited data

How the results depend on the processing

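No log2 fold change of the 10 members changed sign under the 16 alternatives. Median-of-ratios scaling and quantile normalization moved the median log2 fold change of all features to -0.02 and -0.04, from 0.09, and the share of called features that were higher to 66.1% and 67.8%, from 88.1%. Called features numbered 553 higher and 284 lower with median-of-ratios scaling, 524 higher and 249 lower with quantile normalization, and 2288 higher and 618 lower with the replicate block, against 1097 and 148. Lower calls numbered 97 with no filter and 96 without trend and robust settings. With 1 library left out, 264 to 938 features were higher and 20 to 125 lower, 2 to 7 members were higher and 8 to 23 list genes were higher. With quantile normalization 3 members were higher. With the replicate block 35 list genes were higher and 2 lower.

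With median-of-ratios scaling pmk-1 (0.39) and pmk-3 (0.59) did not pass. With quantile normalization tir-1 (0.69), pmk-1 (0.37) and pmk-3 (0.57) did not. With the replicate block pmk-2 (0.50) and atf-7 (0.30) passed, and atf-7 (0.30) also with the filter at 5 RPKM. The block changed no other call of a member. When the block was kept and replicate 3 of each group dropped, which was added after seeing the data, pmk-1 (0.45) and kgb-1 (0.54) did not pass, and pmk-2 (0.44) and atf-7 (0.27) lost the calls gained with the block, so that 4 members were called, against 8. With 1 library left out the log2 fold changes ran from 0.68 to 0.96 for tir-1, 0.45 to 0.59 for pmk-1, 0.58 to 0.80 for pmk-3, 0.26 to 0.35 for atf-7 and 0.86 to 1.13 for mek-1. Fits without a library hold fewer samples, and the causes of the other differences were not tested. The differences of the 3 planned log2 ratios moved by less than the spread between replicates in every alternative, and that of pmk-2 to pmk-1, near 0, changed sign in 3 of them.

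Depth limits pmk-2 most, at 174 to 333 reads per library, and the precision of all comparisons is limited by 3 libraries a group.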
